A study of Mus musculus with 12 samples.

Results

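RNA of the soleus muscle was compared between Phf2 knockout (KO) and control (Ctrl) mice, with 3 libraries per genotype. KO mice were Phf2 flox/flox and carried Acta1 Cre. Ctrl mice were Phf2 flox/flox without Cre, so both genotypes shared the floxed alleles. All were C57BL/6 males, 4 weeks old, and whole muscles were frozen before RNA was isolated. Values are TPM as deposited, a measure of transcript abundance corrected for gene length and scaled to the same total in every library. The comparison covered every gene averaging 1 TPM or more in the 6 soleus libraries, which held for 12148 of 34866 gene IDs. Another 6 libraries, from the gastrocnemius of KO and Ctrl mice with the same number of each, served only to place the soleus values. The tables of the 2 muscles were made separately, and whether both muscles came from the same mice is not stated. The Acta1 promoter drives Cre in skeletal muscle fibres, so vessel, connective tissue, nerve and blood cells in the sample keep their alleles. The floxed exons are not named in the labels, which also leave unsaid whether the libraries of a group came from separate mice. P-values therefore measure the spread between these samples, which may be technical.

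PHF2 belongs to a family of proteins that pair a PHD finger, which binds histone H3 trimethylated at lysine 4 near active promoters, with a Jumonji domain. It is associated with the removal of methyl groups from lysine 9 of histone H3, a mark of repressed chromatin, and acts as a coactivator of transcription factors. The soleus is a postural calf muscle of slow oxidative fibres, marked by the slow myosin Myh7, and of fast oxidative fibres, marked by Myh2, and relies on fatty acid oxidation.

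Of the 9 genes that passed the test described below, 6 had a listed promoter in the RefSeq set of the GRCm38.p6 build, and 4 of these had 1 listed start. Those 4 are shown because PHF2 is known as a promoter-bound protein and the called genes are where the genotypes differed most clearly. Each window runs 5′ to 3′ on the gene's own strand, from 250 bases before the start to 50 after it, with every CG dinucleotide in capitals. The windows are chr2:134644072-134644371 on the minus strand for Tmx4, chr12:76404120-76404419 on the plus strand for Hspa2, chr17:7169865-7170164 on the plus strand for Rps6ka2 and chr7:81498281-81498580 on the minus strand for BC048679.
Tmx4: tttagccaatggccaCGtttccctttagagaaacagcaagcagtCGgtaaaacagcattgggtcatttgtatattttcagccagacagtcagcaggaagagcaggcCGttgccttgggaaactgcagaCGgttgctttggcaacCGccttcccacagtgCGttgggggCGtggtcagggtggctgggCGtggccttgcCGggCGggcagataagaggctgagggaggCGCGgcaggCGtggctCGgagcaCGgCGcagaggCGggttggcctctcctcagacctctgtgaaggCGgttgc
Hspa2: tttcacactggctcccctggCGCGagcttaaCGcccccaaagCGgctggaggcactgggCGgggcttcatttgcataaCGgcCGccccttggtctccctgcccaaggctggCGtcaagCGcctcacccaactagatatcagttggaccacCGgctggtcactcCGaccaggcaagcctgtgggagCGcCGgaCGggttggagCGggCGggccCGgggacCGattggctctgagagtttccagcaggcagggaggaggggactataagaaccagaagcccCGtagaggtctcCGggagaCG
Rps6ka2: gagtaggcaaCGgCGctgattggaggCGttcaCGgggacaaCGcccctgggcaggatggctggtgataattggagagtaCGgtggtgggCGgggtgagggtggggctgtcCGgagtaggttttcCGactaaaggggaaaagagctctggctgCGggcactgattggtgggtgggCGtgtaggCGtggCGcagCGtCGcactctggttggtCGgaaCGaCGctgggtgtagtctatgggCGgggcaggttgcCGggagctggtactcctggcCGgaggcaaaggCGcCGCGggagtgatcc
BC048679: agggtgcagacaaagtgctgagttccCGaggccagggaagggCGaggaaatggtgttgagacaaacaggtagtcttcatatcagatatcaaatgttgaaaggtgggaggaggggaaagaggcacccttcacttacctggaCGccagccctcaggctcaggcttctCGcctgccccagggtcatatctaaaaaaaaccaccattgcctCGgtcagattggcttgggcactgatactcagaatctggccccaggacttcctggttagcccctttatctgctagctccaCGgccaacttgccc
Tmx4, the only higher gene of these, held 18 CG dinucleotides, and the lower genes Hspa2, Rps6ka2 and BC048679 held 21, 24 and 6. The median was 20 over 11900 promoters of tested genes and 7 over all 32851 listed. The E-box letters CANNTG, read alike on both strands, occurred once in Tmx4 and BC048679, in 2 places in Hspa2 and nowhere in Rps6ka2, and at least once in 72.3% of all listed promoters.

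The slow fibre genes matched the label. Myh7 was between 1795 and 5717 TPM in the soleus libraries, against means of 79.2 TPM in KO and 59.5 TPM in Ctrl gastrocnemius. Myh4, the myosin of the fastest fibres, was between 32.0 and 272 TPM in soleus, against means of 11743 and 10243 TPM in KO and Ctrl gastrocnemius. The skin keratin Krt5 was at 0 in all 6 soleus libraries. The read depth behind each value is unknown, because TPM keeps none. KO 3 stood apart. It was at -41.0 on the first principal component, which held 40.8% of the variance, where the others lay between -0.51 and 16.3. Its mitochondrially encoded transcripts made up 39.0% of TPM, against 24.5% to 29.6% in the other 5 libraries. Ctrl 2 stood apart on the second component, with 23.2% of the variance, and had the fewest genes above 0, 18453 against 19463 to 19989 in the others. Each result below rests on these libraries, and counts without KO 3 are given for the main gene groups.

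**Figure D1:**
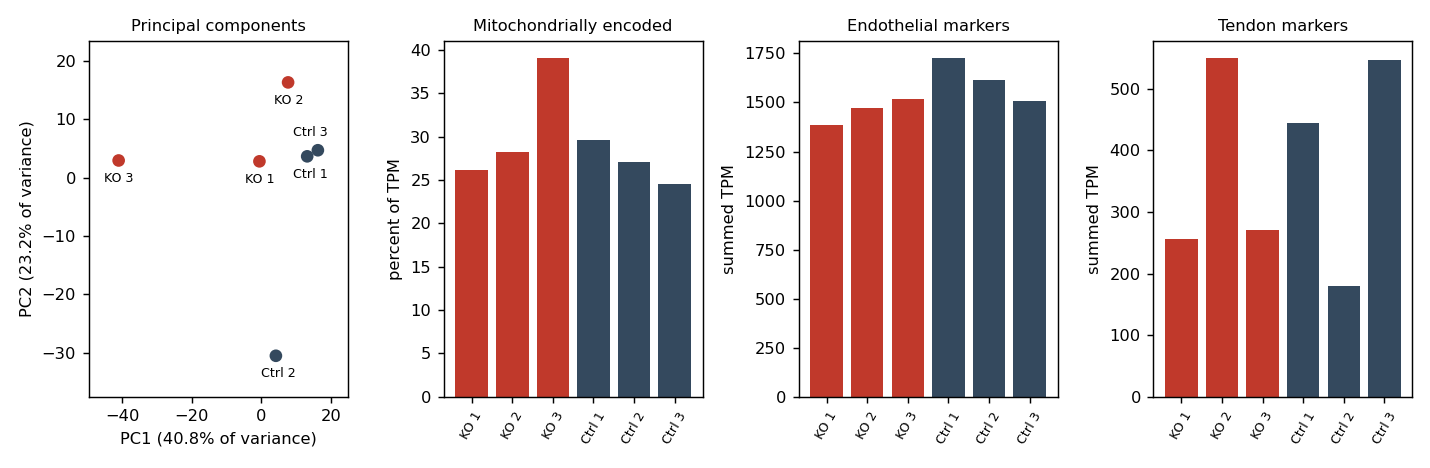
Soleus libraries by their first principal components (left, share of variance on each axis) and, in bars per library, the percent of TPM from mitochondrially encoded genes and the summed TPM of endothelial and of tendon marker genes. KO 3 lies at -41.0 on the first component and has the highest mitochondrial share (39.0%), while the tendon marker sum is lowest in Ctrl 2 and highest in KO 2 and Ctrl 3.

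The targeted gene was lower in every KO library. Phf2 lies on the minus strand of chromosome 13, between bases 48801750 and 48871119 of mm10. Its level was 8.11, 9.06 and 6.79 TPM in KO 1 to 3, against 14.03, 10.002 and 14.98 TPM in Ctrl 1 to 3, and the groups did not overlap. The mean was 7.99 ± 1.14 TPM in KO and 13.003 ± 2.64 TPM in Ctrl (SD, n = 3 each), so that KO soleus retained 61.4% of the Ctrl mean. This is a difference of -0.63 on the log2 scale, with SE 0.174 and an adjusted p of 0.326 by limma. A two-sided exact permutation test gave p = 0.1, below which 3 against 3 libraries cannot go. The difference lay between -0.79 and -0.52 under the alternatives run and passed the test under none of them (adjusted p 0.0908 to 0.766). Gene-level values of a whole muscle also hold RNA of cells without Cre. In such samples fewer cells of a type and less RNA per cell cannot be told apart. Of the PHF2 relatives, Kdm7a was at 3.92, 3.49 and 4.55 TPM in KO and 3.54, 3.35 and 3.18 TPM in Ctrl, and Phf8 at 3.35, 3.87 and 3.597 TPM in KO and 4.26, 3.12 and 4.14 TPM in Ctrl, with overlapping groups. Over the list of 23 tested PHF2 relatives and enzymes of lysine 9 methylation, no member passed the adjusted test, 1 was higher and 2 were lower at an unadjusted p under 0.05, Phf2 among the lower ones.

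Few genes passed in soleus. With limma on log2(TPM + 1) and Benjamini-Hochberg adjustment over all tested genes, 9 of 12148 genes (0.0741%) had an adjusted p under 0.05, of which 2 (0.0165%) rose and 7 (0.0576%) fell in KO. At an unadjusted p under 0.05 there were 1102 genes (9.07%), 550 of them higher in KO (4.53%) and 552 lower (4.54%). The 3 KO values lay all above the 3 Ctrl values in 8.9% of tested genes and all below them in 7.94%, together 2045 genes (16.8%). The median log2 fold change of all tested genes was -0.015, and 47.0% of them were above 0. In a fit of all 12 libraries, which estimates the spread from both muscles, 98 of 12091 genes passed (0.811%), 0.314% higher and 0.496% lower. They included all 7 of the 9 genes tested there. The median residual SD was 0.182 in soleus and 0.124 in gastrocnemius, so that fit understates the soleus spread of a typical gene. It also treats the 12 libraries as independent. The calls depended on single libraries. Without KO 1, KO 2 or KO 3 there were 1, 10 and 0 calls, and without Ctrl 1, Ctrl 2 or Ctrl 3 there were 0, 0 and 1. Without KO 3, 642 genes were higher and 451 lower at an unadjusted p under 0.05. No called gene was called in more than 1 of these 6 fits. None of the 9 changed direction in any setting run. The groups of all 9 were separate, so leaving out a library could not reverse them, and the kept direction is no support. With rescaling by median ratios 3 genes were higher and 6 lower, and with rescaling without mitochondrially encoded genes 8 were higher and 8 lower.

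**Figure D2:**
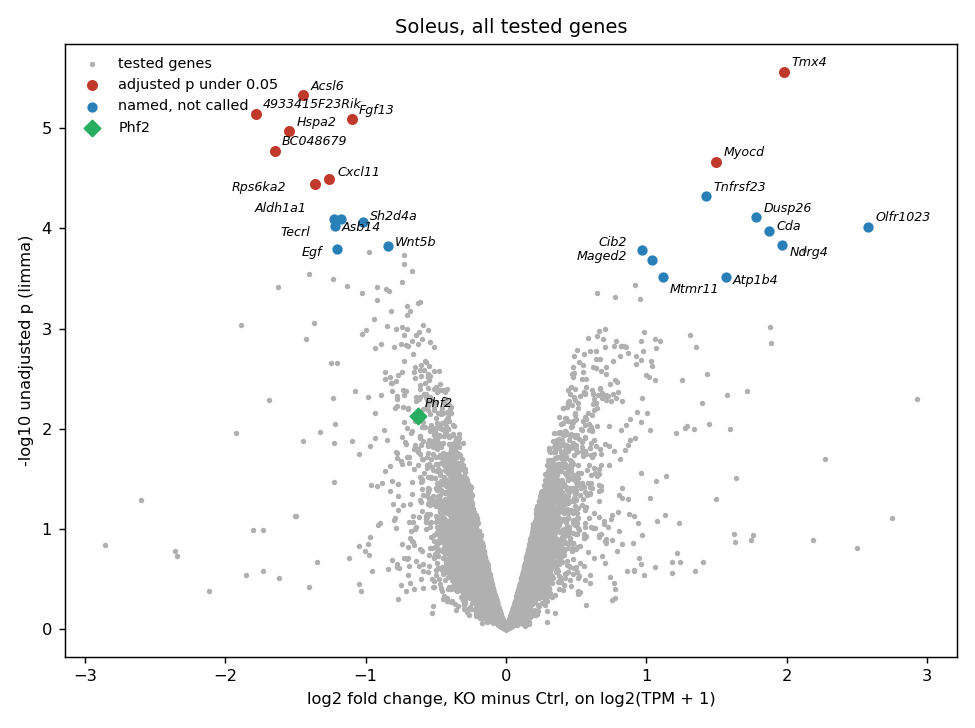
Each point is one of the 12148 genes tested in soleus, by log2 fold change (KO minus Ctrl, on the log2(TPM + 1) scale) and -log10 of the unadjusted limma p. The 9 genes with an adjusted p under 0.05 are red, the 15 further named genes of smallest p blue and Phf2 a green diamond.

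The 2 genes that rose were an enzyme of protein folding and a coactivator of muscle transcription. Tmx4, a thioredoxin-related disulfide oxidoreductase of the endoplasmic reticulum membrane, lies on chromosome 2 from 134594185 to 134644145 and its promoter is the first shown above. It was at 43.6, 34.1 and 32.5 TPM in KO 1 to 3, against 8.53, 7.23 and 9.88 TPM in Ctrl 1 to 3, a 4.30-fold rise (log2 fold change 1.98, SE 0.159, adjusted p = 0.0248). The lowest KO library was more than 3-fold above the highest Ctrl library, at 32.5 and 9.88 TPM. Myocd encodes myocardin, a coactivator of serum response factor in heart and smooth muscle. It was at 1.87, 2.07 and 2.96 TPM in KO libraries, against 0.236, 0.173 and 0.0658 TPM in Ctrl libraries (log2 fold change 1.499, SE 0.161, adjusted p = 0.0373). All 3 Ctrl values lay under 1 TPM, so the gene passed the filter through KO alone, and nothing is read from its separation. The defining smooth muscle markers overlapped between genotypes. Acta2, the smooth muscle actin, was at 94.9, 117 and 92.6 TPM in KO and 106, 112 and 131 TPM in Ctrl, and Myh11, the smooth muscle myosin, at 7.29, 12.2 and 7.12 TPM in KO and 13.02, 8.36 and 12.0 TPM in Ctrl. Of 14 smooth muscle and pericyte markers tested, Myocd among them, 3 were above 0 and 11 below (median log2 fold change -0.21). Their summed level was 454 to 519 TPM in KO and 499 to 558 TPM in Ctrl, and its part in the Myocd result was not tested.

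Among the 7 genes that fell, Acsl6, Fgf13 and Rps6ka2 have known roles in fibres or in signalling. Acsl6, a synthetase that activates long-chain fatty acids to acyl-CoA, was at 4.47, 5.49 and 4.18 TPM in KO 1 to 3, against 14.9, 13.5 and 15.1 TPM in Ctrl 1 to 3 (log2 fold change -1.45, SE 0.125, adjusted p = 0.0248). Fgf13, an intracellular fibroblast growth factor homologue that binds voltage-gated sodium channels, was at 13.1, 14.4 and 12.97 TPM in KO libraries, against 30.4, 30.1 and 29.8 TPM in Ctrl libraries (log2 fold change -1.10, SE 0.103, adjusted p = 0.0248). Its libraries varied little within a genotype, and KO held 44.9% of the Ctrl mean. Rps6ka2, a ribosomal S6 kinase activated by ERK, was at 11.5, 17.1 and 12.6 TPM in KO libraries, against 39.3, 35.5 and 34.4 TPM in Ctrl libraries (log2 fold change -1.36, SE 0.157, adjusted p = 0.0482). Its promoter held the most CG dinucleotides of the 4 shown. In each of these genes the highest KO library lay far below the lowest Ctrl library, at 5.49 against 13.5 TPM for Acsl6 and 17.1 against 34.4 TPM for Rps6ka2.

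The remaining genes that fell were at or under 12.1 TPM in every library. Hspa2, a chaperone of the Hsp70 family known for its role in sperm development, was at 2.37, 3.37 and 3.01 TPM in KO, against 12.1, 10.3 and 9.01 TPM in Ctrl (log2 fold change -1.55, SE 0.150, adjusted p = 0.0258). Cxcl11, a chemokine ligand of the receptor CXCR3 that the annotation lists as a polymorphic pseudogene, was at 0.489, 0.374 and 0.694 TPM in KO, against 2.88, 2.83 and 2.22 TPM in Ctrl (log2 fold change -1.26, SE 0.144, adjusted p = 0.0482). The genotypes were far apart in Hspa2, with no overlap. BC048679 was at 0.497, 0.253 and 0.273 TPM in KO and 4.21, 2.76 and 2.75 TPM in Ctrl (log2 fold change -1.65, SE 0.171, adjusted p = 0.0337). For 4933415F23Rik the values were 0.342, 0.441 and 0.593 TPM in KO and 3.10, 4.85 and 4.22 TPM in Ctrl (log2 fold change -1.78, SE 0.164, adjusted p = 0.0248). In Cxcl11, BC048679 and 4933415F23Rik all KO values lay under 1 TPM, so these genes passed the filter through Ctrl alone. Nothing is read from the separation of their groups. Without KO 3 the adjusted p of the 9 called genes lay between 0.0577 and 0.105, and over all alternatives between 0.000206 and 0.266.

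**Figure D3:**
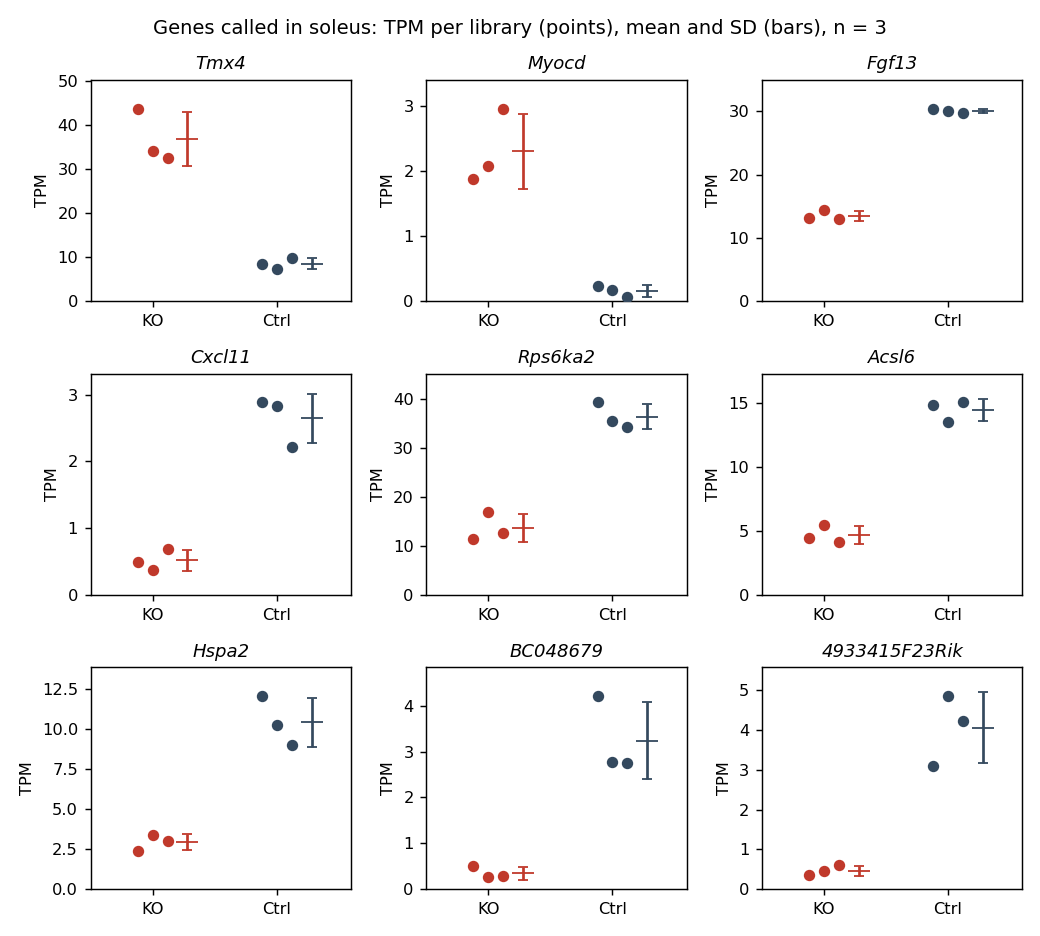
TPM of the 9 genes called in soleus, 1 point per library with KO left and Ctrl right, and the mean with its SD beside the points (n = 3 each). In every panel the KO and Ctrl points are separate, from 32.5 TPM and above in KO against 9.88 TPM and below in Ctrl for Tmx4 to under 1 TPM in KO against 3.10 TPM and above in Ctrl for 4933415F23Rik. Myocd, Cxcl11, BC048679 and 4933415F23Rik passed the filter through KO or Ctrl alone, so nothing is read from their separation.

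The next genes by p, among those with a mean of at least 2 TPM and groups that did not overlap, numbered 9 higher and 6 lower in KO. These genes were named on condition of separate groups, so the separation is not a result. Their adjusted p lay between 0.0575 and 0.124 in the fit of 6 soleus libraries, so none of them passed. In the fit of 12 libraries, which pools in the smaller spread of gastrocnemius, each passed. Dusp26, a dual-specificity phosphatase, was at 51.2, 33.4 and 28.1 TPM in KO 1 to 3 and 12.2, 8.83 and 8.86 TPM in Ctrl 1 to 3 (log2 fold change 1.79, adjusted p = 0.0727). Olfr1023, an odorant receptor gene, was at 54.5, 19.8 and 33.0 TPM in KO and 3.31, 5.26 and 5.76 TPM in Ctrl. Its difference, 2.58 (SE 0.345), was the largest of the 15 on the log2 scale, and the KO libraries spread widely. Ndrg4, of the N-myc downstream regulated family, was at 53.5, 26.1 and 29.0 TPM in KO and 10.1, 6.28 and 8.12 TPM in Ctrl. Cda, the cytidine deaminase of pyrimidine salvage, was at 14.4, 7.07 and 12.8 TPM in KO and 1.68, 2.69 and 2.50 TPM in Ctrl. In both, KO 1 was the highest library.

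Atp1b4, a member of the beta-subunit family of the sodium pump found in muscle, was at 45.4, 23.2 and 45.2 TPM in KO, against 10.9, 12.3 and 11.7 TPM in Ctrl. For Tnfrsf23, a decoy receptor of the tumour necrosis factor receptor family, the values were 21.2, 13.03 and 18.1 TPM in KO and 5.62, 5.88 and 5.69 TPM in Ctrl. The Ctrl libraries of both were close together and every KO library lay well above them. Cib2, a calcium- and integrin-binding protein, Maged2, of the melanoma antigen family, and Mtmr11, of the myotubularin family, had log2 fold changes of 0.97 (SE 0.140), 1.04 (SE 0.157) and 1.12 (SE 0.178). Maged2 was the most abundant, at 69.4, 51.7 and 57.8 TPM in KO and 25.0, 27.2 and 32.9 TPM in Ctrl.

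On the lower side, Aldh1a1, a dehydrogenase that makes retinoic acid from retinal, was at 41.8, 48.7 and 34.1 TPM in KO 1 to 3 and 101, 86.4 and 106 TPM in Ctrl 1 to 3 (log2 fold change -1.23, SE 0.160, adjusted p = 0.0727). Asb14, a substrate adaptor of ubiquitin ligases, was at 21.3, 31.1 and 22.9 TPM in KO and 53.2, 61.4 and 62.6 TPM in Ctrl. In both genes the groups were far apart. Egf, the epidermal growth factor, was at 3.598, 4.52 and 2.47 TPM in KO and 9.09, 9.52 and 9.05 TPM in Ctrl, and Wnt5b, a secreted Wnt ligand, at 1.45, 1.81 and 1.61 TPM in KO and 3.38, 3.71 and 4.00 TPM in Ctrl. Tecrl, an endoplasmic reticulum protein of heart and skeletal muscle, was at 2.25, 3.05 and 3.48 TPM in KO and 6.83, 8.13 and 8.45 TPM in Ctrl. Sh2d4a, an SH2-domain adaptor, was at 1.62, 2.39 and 2.04 TPM in KO and 5.22, 5.33 and 4.71 TPM in Ctrl. These 4 genes were under 10 TPM in every library.

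Gene groups are given next as counts at an unadjusted p under 0.05, beside 4.53% higher and 4.54% lower among all tested genes. Without KO 3 these shares were 5.28% and 3.71%. Counts above or below 0 stand beside 47.0% above 0 among all tested genes. No member of a list passed the adjusted test but Acsl6 and Myocd. Of 19 tested genes of developing muscle, which embryonic, neonatal and regenerating fibres express, 9 were higher in KO and 1 lower (median log2 fold change 0.46), and without KO 3 the counts were again 9 and 1. Among the higher ones, the myogenic transcription factor Myod1 was at 14.2, 13.4 and 11.6 TPM in KO 1 to 3 and 3.87, 5.84 and 10.1 TPM in Ctrl 1 to 3 (log2 fold change 0.97, SE 0.274, adjusted p = 0.343). Myog, the factor that follows it in differentiation, was at 29.6, 20.1 and 16.5 TPM in KO and 10.9, 13.9 and 17.4 TPM in Ctrl, where KO 3 overlapped with Ctrl 3. Myl4, the embryonic and atrial myosin light chain, was at 52.1, 25.8 and 34.8 TPM in KO and 16.6, 18.5 and 22.6 TPM in Ctrl, and Tnnt2, the embryonic and cardiac troponin T, at 37.0, 31.5 and 22.05 TPM in KO and 20.98, 15.3 and 20.4 TPM in Ctrl. The groups of both were separate. Actc1, the cardiac actin, and Ankrd1, a stretch-responsive titin-binding protein, overlapped between genotypes, with log2 fold changes of 0.68 and 0.58.

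The developmental myosins did not go with this group. Myh8, the perinatal myosin heavy chain, was the lower member, at 6.84, 2.82 and 3.85 TPM in KO and 7.39, 11.3 and 27.5 TPM in Ctrl (log2 fold change -1.45, SE 0.450, adjusted p = 0.387). The groups did not overlap, and Ctrl 3 was far above the other Ctrl libraries. Myh3, the embryonic myosin, was at 12.4, 18.1 and 7.97 TPM in KO and 17.6, 14.5 and 19.5 TPM in Ctrl, with overlap. Igf2, a fetal growth factor, was at 78.8, 62.7 and 46.5 TPM in KO and 46.1, 56.5 and 69.3 TPM in Ctrl, also with overlap.

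Acetylcholine receptor subunits stood at the higher end of the neuromuscular junction genes, of which 3 of 17 were higher and 0 lower (median 0.097). Chrna1, the alpha subunit of muscle, was at 19.4, 15.7 and 16.6 TPM in KO 1 to 3 and 9.39, 11.5 and 10.5 TPM in Ctrl 1 to 3 (log2 fold change 0.67, SE 0.129, adjusted p = 0.198). Chrna1 is also on the developing muscle list. Chrng, the fetal gamma subunit, is on that list and on the one of denervation and was at 3.89, 1.92 and 1.17 TPM in KO and 0.789, 0.641 and 0.807 TPM in Ctrl, and Chrnd, the delta subunit, at 8.84, 7.26 and 6.52 TPM in KO and 4.80, 4.31 and 6.26 TPM in Ctrl. In Chrna1 and Chrnd every KO library lay above every Ctrl library. Chrng was also separate, but it was under 1 TPM in all Ctrl libraries and passed the filter through KO alone, so nothing is read from its separation or from its place in the 3 list counts. Of 19 genes of denervation and atrophy, 4 were higher and 1 lower (median 0.093), and without KO 3 6 and 0. Gadd45a, a growth arrest gene of DNA damage and muscle atrophy, was at 17.1, 12.6 and 12.5 TPM in KO and 8.17, 7.40 and 10.3 TPM in Ctrl, and Ncam1, an adhesion molecule of developing and denervated fibres, at 12.6, 10.7 and 11.5 TPM in KO and 7.82, 7.01 and 9.46 TPM in Ctrl. Fbxo40, a muscle ubiquitin ligase component, was the lower member, at 50.6, 45.5 and 41.4 TPM in KO and 67.2, 54.0 and 55.3 TPM in Ctrl. Markers of Schwann cells and nerve, whose RNA these samples also hold, were 1 higher and 2 lower of 13 (median -0.23), and 0 and 0 without KO 3. Their summed level was 211 to 349 TPM in KO and 293 to 363 TPM in Ctrl, and their part in these values was not tested.

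Of 15 tested p53 target genes, 6 were higher in KO and 0 lower (median 0.29), and the counts without KO 3 were the same. Cdkn1a, the cell-cycle inhibitor p21, was at 58.5, 39.2 and 45.5 TPM in KO 1 to 3 and 27.3, 16.6 and 23.2 TPM in Ctrl 1 to 3 (log2 fold change 1.07, SE 0.213, adjusted p = 0.198). Eda2r, the ectodysplasin A2 receptor, was at 13.7, 7.70 and 12.7 TPM in KO and 6.05, 4.72 and 4.84 TPM in Ctrl, and Trp53inp1, a p53-induced nuclear protein, at 4.26, 2.92 and 3.68 TPM in KO and 2.04, 2.28 and 1.35 TPM in Ctrl. These 3 genes had no overlap. Mdm2, the ubiquitin ligase of p53, and Zmat3, an RNA-binding p53 target, had smaller log2 fold changes of 0.33 (SE 0.139) and 0.32 (SE 0.126), again without overlap, and Ccng1, cyclin G1, had one of 0.55 with overlap. Bax, the pore-forming protein of apoptosis, was at 45.3, 36.5 and 23.5 TPM in KO and 33.0, 36.02 and 38.8 TPM in Ctrl. Of 23 cell cycle genes, 0 were past the unadjusted threshold in either direction.

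Genes of fatty acid use tended to lower values. Of 32 tested genes of fatty acid uptake and oxidation, 0 were higher and 7 lower (median -0.18), 27 were below 0, and in 11 every KO library lay below every Ctrl library. That separation held for 7.94% of all tested genes. Acsl6 was the one that passed the adjusted test. Plin5, which coats lipid droplets beside mitochondria, was at 27.9, 27.7 and 18.3 TPM in KO 1 to 3 and 45.9, 38.3 and 36.01 TPM in Ctrl 1 to 3 (log2 fold change -0.70, SE 0.187, adjusted p = 0.298). Cd36, the fatty acid transporter, was at 194, 238 and 218 TPM in KO and 329, 272 and 299 TPM in Ctrl, and Acadvl, the very long-chain acyl-CoA dehydrogenase, at 349, 281 and 255 TPM in KO and 393, 415 and 372 TPM in Ctrl. The matrix enzymes Cpt2 and Decr1 differed by less, at -0.25 (SE 0.104) and -0.25 (SE 0.104) on the log2 scale. Slc27a1, another fatty acid transporter, was at 109, 143 and 52.9 TPM in KO and 179, 139.9 and 186 TPM in Ctrl, with KO 3 lowest and the genotypes overlapping. Without KO 3 the counts were again 0 and 7, and the median was -0.12.

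Cells other than fibres also use several of these genes. Of 16 adipocyte markers 0 were higher and 2 lower (median -0.13), and their summed level was 2726 to 3177 TPM in KO and 3760 to 4669 TPM in Ctrl. That sum is led by Car3, a carbonic anhydrase that fibres express too, at 1674, 1841 and 1734 TPM in KO and 2374, 3558 and 3112 TPM in Ctrl. The defining markers overlapped, with Adipoq at 5.94, 24.6 and 14.5 TPM in KO and 21.2, 6.93 and 15.2 TPM in Ctrl. Of 19 endothelial markers, 0 were higher and 8 lower (median -0.25), 16 were below 0, and 10 were separate with KO below Ctrl. Among all tested genes 7.94% were separate in that direction. Without KO 3 the counts were 0 and 6, beside 5.28% higher and 3.71% lower among all tested genes. Sox18, a transcription factor of vessels, was at 15.6, 16.8 and 17.9 TPM in KO and 29.6, 22.5 and 25.2 TPM in Ctrl. The water channel Aqp1 was at 181, 168 and 115 TPM in KO and 209.9, 225 and 199 TPM in Ctrl. The defining junction genes differed by less, Cdh5 with 54.5, 58.3 and 60.8 TPM in KO and 73.7, 64.8 and 63.3 TPM in Ctrl and Pecam1 with 60.3, 63.8 and 66.2 TPM in KO and 79.3, 69.5 and 68.7 TPM in Ctrl, and neither reached an unadjusted p of 0.05. Summed, the endothelial markers were at 1383 to 1519 TPM in KO and 1508 to 1725 TPM in Ctrl. The part of vessel or fat cells in the fatty acid genes was not tested.

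Glucose and glycogen genes included 1 higher and 3 lower of 27 (median -0.12), and without KO 3 the counts were again 1 and 3 but the median was -0.0044. Pfkfb1, an isoform of the enzyme that sets fructose 2,6-bisphosphate, was at 6.98, 8.32 and 6.69 TPM in KO 1 to 3 and 13.8, 12.1 and 10.8 TPM in Ctrl 1 to 3 (log2 fold change -0.67, SE 0.135, adjusted p = 0.198). The glycogen primer Gyg was at 225, 239 and 203 TPM in KO and 298, 350.3 and 335 TPM in Ctrl, and glycogen synthase, Gys1, at 158, 159.9 and 130.3 TPM in KO and 229.8, 189 and 185 TPM in Ctrl. The higher member was the hexokinase Hk1, at 11.5, 11.1 and 10.4 TPM in KO and 8.46, 7.24 and 9.70 TPM in Ctrl. In all 4 genes the groups were separate. Lipid and sterol synthesis held 1 higher and 2 lower of 23, with Dgat2, which makes triglyceride, at 54.8, 63.8 and 34.0 TPM in KO and 80.3, 87.8 and 75.6 TPM in Ctrl.

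Nuclear genes of oxidative phosphorylation were 0 higher and 1 lower of 46, with 37 below 0 (median -0.14), where 47.0% of all tested genes were above 0. The lower one was Ndufb3, a complex I subunit, at 255, 261 and 160.4 TPM in KO and 329, 299 and 329 TPM in Ctrl, with KO 3 lowest. Without KO 3 the median was -0.021. All 13 mitochondrially encoded genes were above 0 (median 0.17), none past the unadjusted threshold, and without KO 3 the median was 0.0078. Of 20 tricarboxylic acid cycle genes none was past that threshold. Regulators of oxidative metabolism went both ways, 3 higher and 3 lower of 22, and without KO 3 4 higher and 0 lower. Esrrg, an orphan receptor that drives oxidative genes, was at 29.1, 19.4 and 28.1 TPM in KO and 15.2, 15.8 and 11.6 TPM in Ctrl, and Prox1, a homeodomain factor of slow fibres, at 4.70, 4.24 and 4.37 TPM in KO and 2.93, 3.86 and 2.99 TPM in Ctrl. Both were separate between genotypes. Perm1, a muscle coregulator of mitochondrial genes, was at 156, 167 and 118 TPM in KO and 177, 212 and 188 TPM in Ctrl, lowest in KO 3.

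Genes of insulin and growth signalling were 3 higher and 4 lower of 24 (median 0.064). Grb14, an adaptor that inhibits the insulin receptor, had the largest difference, at 7.77, 11.6 and 13.1 TPM in KO 1 to 3 and 46.6, 37.2 and 24.0 TPM in Ctrl 1 to 3 (log2 fold change -1.62, SE 0.268, adjusted p = 0.129). Its relative Grb10 was on the other side, at 62.3, 50.4 and 52.8 TPM in KO and 33.3, 36.8 and 45.8 TPM in Ctrl. Irs2, a substrate of the insulin receptor, was at 23.2, 17.6 and 16.4 TPM in KO and 38.6, 29.0 and 28.1 TPM in Ctrl, and the kinase Akt1 at 49.7, 48.9 and 40.8 TPM in KO and 58.3, 61.9 and 64.5 TPM in Ctrl. The receptors Insr and Igf1r were at 0.37 (SE 0.130) and 0.31 (SE 0.109) on the log2 scale, both with KO above Ctrl. Smad3, which carries signals of myostatin and other TGF-beta ligands, was at 12.5, 14.9 and 12.1 TPM in KO and 20.1, 18.2 and 20.6 TPM in Ctrl. In all 7 genes the genotypes were separate. Over the list of 24, 5 genes were separate and higher and 5 separate and lower, against 8.9% and 7.94% of all tested genes.

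The TPM of each adult myosin overlapped between genotypes. Myh7 was at 4055, 5717 and 1795 TPM in KO 1 to 3 and 4503, 4568 and 5573 TPM in Ctrl 1 to 3, and made up 38.1% to 60.9% of the summed TPM of the 4 adult myosins in KO, against 49.0% to 56.6% in Ctrl. Myh2 was at 2699, 2304 and 2152 TPM in KO and 3007, 2537 and 2505 TPM in Ctrl, and Myh1, of another fast fibre type, at 1204, 1095 and 727 TPM in KO and 1633, 932 and 1911 TPM in Ctrl. Myh4 was at 122, 272 and 43.0 TPM in KO and 42.3, 32.0 and 78.5 TPM in Ctrl, or 0.912% to 2.90% of the sum in KO, against 0.397% to 0.779% in Ctrl. The Myh4 shares were thus separate between genotypes, and those of Myh7, Myh2 and Myh1 overlapped. For KO 3 the separation rested on low TPM of the other adult myosins, since its Myh4 TPM, 43.0, lay below the 78.5 of Ctrl 3. KO 2 was the highest for Myh4 and KO 3 the lowest for Myh7. Among 17 slow fibre genes, 0 were higher and 2 lower (median -0.24; without KO 3 -0.082, with 1 higher and 1 lower). Csrp3, a LIM protein of the Z-disc, was at 956, 513 and 659 TPM in KO and 1586, 1488 and 820.1 TPM in Ctrl, and Fhl1, another LIM protein, at 2911, 2334 and 2879 TPM in KO and 3651, 3663 and 3185 TPM in Ctrl. Of 18 fast fibre genes none was past the unadjusted threshold, whereas without KO 3 6 were higher, when 5.28% of all genes were higher and 3.71% lower.

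The dystrophin complex and costamere list held 3 higher and 1 lower of 20 (median 0.12). Dmd, dystrophin, was at 13.3, 18.4 and 17.6 TPM in KO 1 to 3, against 30.9, 31.4 and 28.7 TPM in Ctrl 1 to 3 (log2 fold change -0.86, SE 0.142, adjusted p = 0.131). In the fit of 12 libraries, which pools the spread of both muscles, its adjusted p was 0.0121. Over all alternatives it lay between 0.0121 and 0.477. The syntrophin Sntb1 was at 4.73, 3.61 and 5.11 TPM in KO and 2.52, 2.04 and 2.50 TPM in Ctrl, and the sarcoglycan Sgcd at 7.997, 6.53 and 8.33 TPM in KO and 5.25, 6.11 and 4.30 TPM in Ctrl. These 3 were separate between genotypes. Sarcomere and Z-disc genes were 1 higher and 3 lower of 30, with the muscle calpain Capn3 at 58.6, 65.5 and 51.9 TPM in KO and 81.9, 81.0 and 88.1 TPM in Ctrl. Without KO 3 the sarcomere counts were 2 and 1, and the median was 0.053 instead of -0.068. Of 24 genes of excitation-contraction coupling and calcium handling, 1 was higher, Ryr3, a ryanodine receptor of immature muscle, at 3.21, 1.83 and 1.30 TPM in KO and 0.447, 0.360 and 0.740 TPM in Ctrl. It too was under 1 TPM in all Ctrl libraries and passed the filter through KO alone. Without KO 3 the counts of this calcium list were 3 higher and 0 lower.

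**Figure D4:**
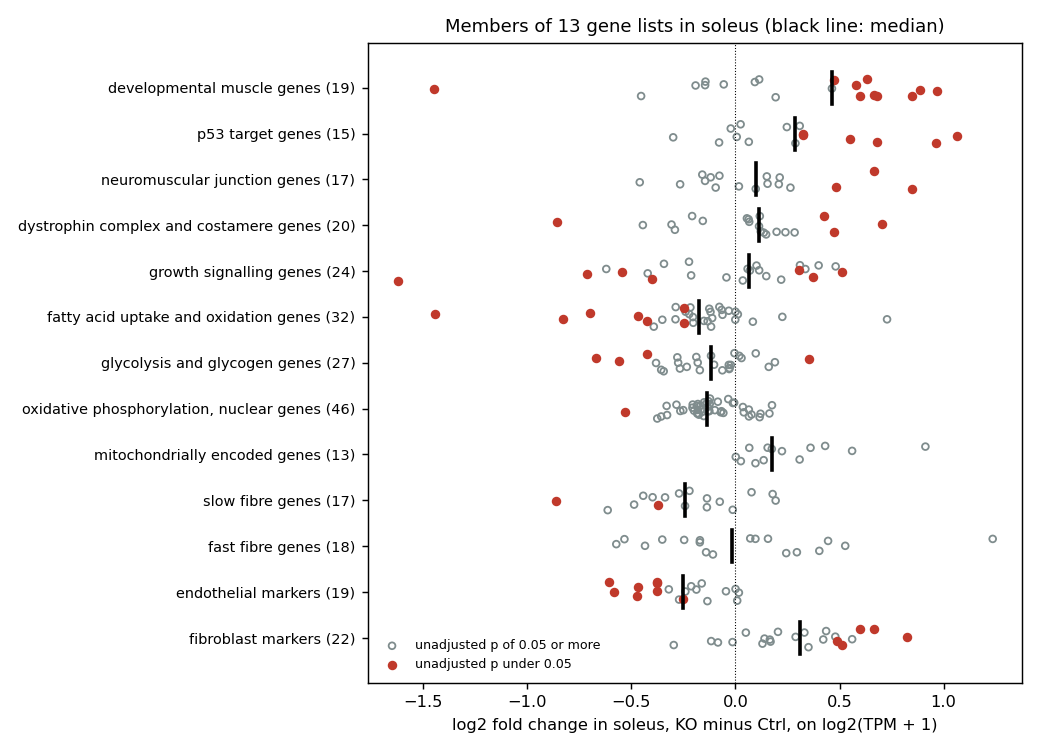
Log2 fold change in soleus (KO minus Ctrl, on log2(TPM + 1)) of each tested member of 13 gene lists, with the number of members in brackets. Filled red points have an unadjusted p under 0.05 and black lines mark medians. Developmental muscle genes (median 0.46), fibroblast markers (0.31) and p53 targets (0.29) lie to the right of 0. Endothelial markers (-0.25), slow fibre genes (-0.24) and fatty acid genes (-0.18) lie to the left.

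The summed levels of connective tissue and immune markers overlapped between genotypes. Fibroblast markers were 5 higher and 0 lower of 22 (median 0.31), and without KO 3 2 were higher. Lum, a collagen-binding proteoglycan, was at 34.4, 35.4 and 39.6 TPM in KO and 19.5, 14.01 and 29.7 TPM in Ctrl. Pdgfra, the receptor that marks these cells, was at 4.90, 5.74 and 5.35 TPM in KO and 3.65, 2.29 and 4.68 TPM in Ctrl. Both genes were separate between genotypes, and 18 of the 22 had a log2 fold change above 0, against 47.0% of all tested genes. The proteoglycan Dcn was at 233, 319 and 321 TPM in KO and 202, 129 and 285 TPM in Ctrl, with overlap. Col1a1, a chain of type I collagen and the lowest of the list by log2 fold change (-0.30), was at 174, 544 and 171 TPM in KO and 425, 142 and 496 TPM in Ctrl, and the summed list at 2574 to 4246 TPM in KO and 1777 to 3989 TPM in Ctrl, with overlap. Of 14 tendon markers (median 0.0083) none was past the unadjusted threshold. Macrophage and immune markers were 1 higher and 0 lower of 16 (median 0.29, 14 above 0). Their sums were 137 to 181 TPM in KO and 79.1 to 171 TPM in Ctrl. Satellite cell markers were 1 higher and 2 lower of 16. The higher one was Myod1, also a member of the developing muscle list, while the defining Pax7 was at 2.45, 2.08 and 1.46 TPM in KO and 1.43, 1.49 and 2.18 TPM in Ctrl. The sum of the satellite cell markers was 1154 to 1754 TPM in KO and 1488 to 1610 TPM in Ctrl, and its part in the developing muscle genes was not tested. No member of the erythroid (6 tested) and keratinocyte (2 tested) lists was past the threshold.

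Stress, turnover and clock lists held few such genes. None was past the unadjusted threshold in either direction among 77 cytosolic ribosomal protein, 30 proteasome, 18 cytosolic heat shock and 14 glucocorticoid and fasting genes. Counts were 1 higher and 0 lower for 13 integrated stress response, 16 endoplasmic reticulum chaperone and 17 circadian clock genes, 1 and 1 for 19 oxidative stress genes, and 0 and 1 for 22 immediate early, 20 autophagy and lysosome and 21 interferon response genes. Without KO 3, counts were 4 higher and 0 lower for immediate early genes and 3 and 1 for clock genes. For glucocorticoid and fasting genes they were 2 and 0.

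The knockout effect in soleus was then set beside that in gastrocnemius, where 1704 of 11911 genes passed (14.3%) and the genotypes did not overlap in 37.7%. No member of the list of PHF2 relatives and lysine 9 methylation enzymes, Phf2 included, passed there. Of the 9 soleus genes, 6 were tested in gastrocnemius, and Tmx4, Acsl6, Fgf13 and Rps6ka2 also passed there in the same direction. Tmx4 rose by 1.12 on the log2 scale in gastrocnemius (adjusted p = 0.0187), and Acsl6 had -0.78, Fgf13 -1.16 and Rps6ka2 -1.34. The differences between the muscles did not pass for these 4, with adjusted p from 0.0916 for Acsl6 to 0.972 for Rps6ka2. Among the 20 genes with the smallest p in soleus above 2 TPM (10 per direction), 18 were tested in gastrocnemius and 14 passed there in the same direction. Among these, the log2 fold change of Asb14 was -1.22 in soleus and -1.32 in gastrocnemius, that of Aldh1a1 -1.23 and -1.12, and that of Atp1b4 1.57 and 1.80. Ndrg4, Cib2 and Sh2d4a did not pass in gastrocnemius, with 0.15, 0.021 and 0.0095. Chrna9, a nicotinic receptor subunit chosen for its rise in gastrocnemius (2.11), was at 11.7, 8.31 and 13.4 TPM in KO soleus and 0.676, 3.41 and 3.56 TPM in Ctrl soleus. This was a log2 fold change of 1.89 with an adjusted p of 0.198. In gastrocnemius Chrna9 was under 1 TPM in all Ctrl libraries, at 0.355, 0.648 and 0.487 TPM, so it passed the filter there through KO alone. Sall4, a zinc-finger regulator of early development that fell in gastrocnemius (-1.56), was at 1.19, 1.24 and 0.593 TPM in KO soleus and 3.06, 5.78 and 4.22 TPM in Ctrl soleus, a log2 fold change of -1.40 with an adjusted p of 0.124. In both genes the soleus groups were separate.

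Agreement in direction grew with the soleus evidence. Of 11635 genes tested in both muscles, 45.7% had the same sign. The share was 61.8% of 1017 genes with an unadjusted soleus p under 0.05, 76.7% of 305 under 0.01 and 88.0% of 50 under 0.001. These thresholds were chosen after the values were seen and the shares are a description. In the last group 31 genes passed in gastrocnemius in the same direction and 1 in the other. Of the genes called in gastrocnemius and tested in soleus, 40.9% of 1652 had the same sign in soleus. Of 1082 genes that rose in gastrocnemius, 405 were above 0 in soleus (median -0.064, against 0.48 in gastrocnemius), and of 570 that fell there, 270 were below 0 in soleus (median 0.016, against -0.43). The median SE of a soleus fold change was 0.148, against 0.104 in gastrocnemius. Of the 16 largest gastrocnemius changes (8 per direction), 5 of the higher and 4 of the lower ones were separate in the same direction in soleus. Of all 1082 gastrocnemius rises, 95 were separate and higher in soleus and 31 separate and lower, and of the 570 falls, 98 were separate and lower and 48 separate and higher. Among all tested soleus genes 8.9% were separate and higher and 7.94% separate and lower. Rps27, a ribosomal protein gene with near-identical copies, Mt3, a metallothionein, and Sln, a calcium pump inhibitor, rose in gastrocnemius and were at 0.081, -0.17 and 0.058 in soleus, with standard errors of 0.475, 0.244 and 0.340.

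**Figure D5:**
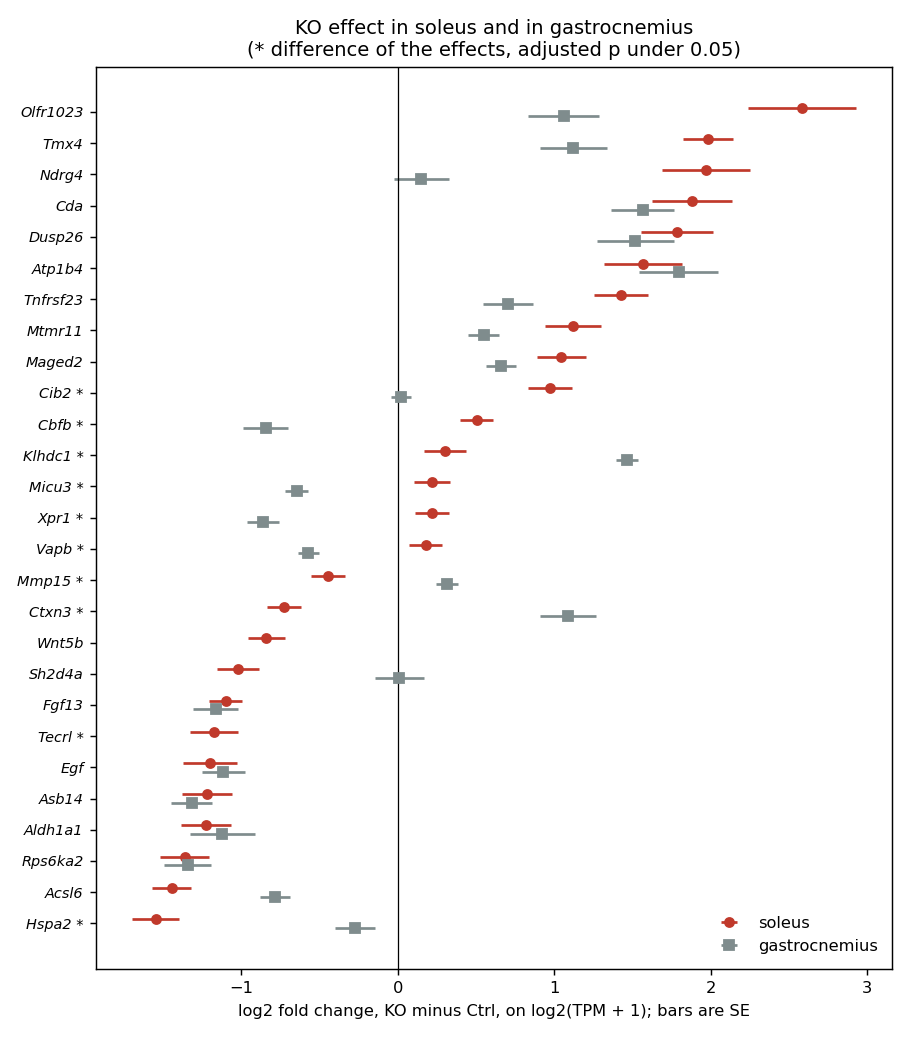
Log2 fold change (KO minus Ctrl, on log2(TPM + 1), bars are SE) in soleus (red circles) and gastrocnemius (grey squares) for the genes of smallest p in soleus and those whose effect differed most between muscles. Asterisks mark genes with an adjusted p under 0.05 for the difference, and no square is drawn where the gene was under the filter in gastrocnemius. Rps6ka2, Asb14 and Egf lie close together in both muscles, whereas Cbfb, Micu3, Xpr1 and Vapb lie on opposite sides of 0. The soleus effects of Cbfb, Micu3, Xpr1 and Vapb did not pass.

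The difference of the effects itself passed in 33 of 12091 genes (0.273%), 19 of them higher in soleus (0.157%) and 14 lower (0.116%). With rescaling without mitochondrially encoded genes 11 were higher and 5 lower. Leaving out a library moved the count to 306 without soleus KO 2, to 1 without soleus Ctrl 3, to 11 to 24 without another soleus library and to 1 to 6 without a gastrocnemius library. Hspa2 and 4933415F23Rik were the called soleus genes among them. In gastrocnemius 4933415F23Rik was also separate and lower in KO, at 0.317, 0.223 and 0.334 TPM against 0.670, 0.529 and 0.465 TPM in Ctrl. These levels are under the filter, where the log2(TPM + 1) scale understates changes, so its difference is not read as a fall of soleus alone. For Hspa2 the effect was -1.55 in soleus and -0.27 in gastrocnemius (difference -1.27, adjusted p = 0.0392). Cbfb, the partner subunit of Runx transcription factors, was at 28.3, 25.3 and 25.8 TPM in KO soleus and 19.1, 18.1 and 17.9 TPM in Ctrl soleus, and fell by 0.84 on the log2 scale in gastrocnemius (difference 1.35, adjusted p = 0.0215). Micu3, a regulator of the mitochondrial calcium uniporter, Xpr1, a phosphate exporter, and Vapb, a tether of the endoplasmic reticulum to other membranes, likewise fell in gastrocnemius. In soleus they were separate with KO above Ctrl, but by small log2 fold changes of 0.22, 0.22 and 0.18. Their unadjusted limma p in soleus was 0.091, 0.084 and 0.13, so a soleus rise was not shown. Cbfb did not pass in soleus either (adjusted p = 0.205). The soleus values of Micu3, Xpr1 and Vapb lay close together, for example 74.4, 75.1 and 74.2 TPM in KO and 65.6, 62.8 and 69.0 TPM in Ctrl for Vapb.

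In the other direction, Ctxn3, a small membrane protein of the cortexin family, was at 8.52, 8.38 and 7.24 TPM in KO soleus and 14.2, 14.4 and 13.3 TPM in Ctrl soleus, while it rose by 1.09 in gastrocnemius (difference -1.82, adjusted p = 0.0193). Mmp15, a membrane-type matrix metalloproteinase, was at 9.55, 10.1 and 8.64 TPM in KO soleus and 12.8, 12.7 and 14.04 TPM in Ctrl soleus and rose by 0.31 in gastrocnemius. Cox6a2, a cytochrome oxidase subunit of heart and muscle, was at 1894, 2020.2 and 1349 TPM in KO soleus and 2373, 2007 and 2147 TPM in Ctrl soleus, with overlap, and rose by 0.94 in gastrocnemius (difference -1.26, adjusted p = 0.0434). Klhdc1, a substrate receptor of ubiquitin ligases, was at 17.3, 17.0 and 22.6 TPM in KO soleus and 15.3, 14.7 and 15.3 TPM in Ctrl soleus, a log2 fold change of 0.30, and rose by 1.46 in gastrocnemius. For Myh8 the soleus and gastrocnemius effects had opposite signs, -1.45 and 1.52, with an adjusted p of 0.0632 for the difference.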

How the data were processed

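RNA from 12 mouse muscle libraries was sequenced, and the 6 soleus libraries were analysed here with the 6 of gastrocnemius beside them. For each muscle the authors deposited 1 table of TPM, in which every column sums to 1000000. Directional libraries were made per the labels' protocols, and mm10 is named as the genome build in the submitters' processing notes. No source used here names the aligner, quantifier or annotation. The depth per library, and so the precision of low levels, cannot be read from TPM.

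Of 34866 gene IDs, 34582 were matched to GENCODE mouse release M21 for symbols and coordinates. Those averaging 1 TPM or more over the 6 libraries were fitted as log2(TPM + 1), a scale that understates changes of low genes, with limma 3.58.1 in R 4.3.3 (version 1.17.8 of data.table): group means, mean-variance trend, two-sided moderated tests, Benjamini-Hochberg adjustment over all tested genes, threshold 0.05. The difference between muscles was a contrast in a fit of all 12 libraries. The script was tested on simulated data. Figures used matplotlib 3.10.9 in Python 3.11.15.

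Genes are named by rule: Phf2; called genes; the 10 of smallest p per direction with a mean of at least 2 TPM and separate groups; the 3 of smallest p per list; 4 adult myosins; 5 per direction for the difference; 8 per direction for gastrocnemius; and the 8 most variable. Predicted genes and pseudogenes were passed over in most parts, and 4933415F23Rik and Cxcl11 were named as called genes although the rule passes over them. Other list members were chosen after their values were seen, and alternatives were computed for the named genes and for list members with an unadjusted p under 0.05. The comparison, the 40 lists and the rules were chosen with earlier results of these data known. Alternatives were other pseudocounts, filters, scalings, priors, array weights, a replicate block, the fit of 12, and leaving out each library. Same-numbered libraries, of KO and Ctrl or of both muscles, did not deviate together throughout. The numbers were not taken as pairs, although 3 libraries per group cannot decide this.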

Additional observations from a re-analysis of the deposited data

Results flagged for a closer look

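In 13 named genes the soleus effect of the knockout differed from the gastrocnemius effect by the test of the difference itself (limma over 12 libraries, adjusted p under 0.05). The soleus effect was higher, on the log2 scale, by 1.69 for Cntnap2, 1.35 for Cbfb, 1.08 for Xpr1, 0.95 for Cib2, 0.86 for Micu3 and 0.75 for Vapb. Cntnap2, a neurexin-family adhesion protein, was between 0.129 and 0.315 TPM in the soleus libraries, under the filter there, and it fell by 1.67 on the log2 scale in gastrocnemius. At such levels the log2(TPM + 1) scale can hardly show a soleus change, so its difference mostly restates the gastrocnemius fall. The difference was -1.82 for Ctxn3, -1.52 for 4933415F23Rik, -1.27 for Hspa2, -1.26 for Cox6a2, -1.17 for Tecrl, -1.16 for Klhdc1 and -0.76 for Mmp15. Of these 13, Hspa2 and 4933415F23Rik were also called in soleus, and 4933415F23Rik and Tecrl were under the filter in gastrocnemius. The difference of Tecrl mostly restates its soleus effect, since it was between 0.121 and 0.204 TPM in gastrocnemius. There 4933415F23Rik was also separate with KO below Ctrl, with all values under 1 TPM. None of these differences changed sign in the alternatives run, which gave 174 values that passed and 121 that did not. The genes had already passed the same test in these data, so a kept sign adds no support.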

How the results depend on the processing

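The 9 soleus calls became 0 without a filter on low values (1738 at an unadjusted p under 0.05), 5 with a filter at a mean of 5 TPM, 16 with rescaling without mitochondrially encoded genes, 19 with array weights and 98 in the fit of 12 libraries. Leaving out each soleus library gave 0 to 10. With the replicate number as a block 0 passed, and 727 genes had an unadjusted p under 0.05. Same-numbered KO and Ctrl soleus libraries deviated in opposite directions, with correlations of -0.37 to -0.19 over genes. Same-numbered soleus and gastrocnemius libraries of a genotype had correlations of -0.16 to 0.22. Deviations were taken from means of 3 libraries, so these correlations constrain one another and cannot decide whether equal numbers mark pairs. The labels do not say whether a number marks a mouse. The 33 differences between muscles became 14 with a pseudocount of 0.1, 21 with median-ratio scaling and with quantile normalization, 16 without mitochondrially encoded genes, 292 with array weights and 3 with the replicate block, and 1 to 306 when a library was left out. Where no cause is visible in the setting itself, it was not tested.

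Of the named genes not called, 9 changed sign in some setting. Leaving out each library gave -0.30 to 0.072 for Mt3, -0.29 to 0.57 for Rps27, -0.28 to 0.33 for Sln, -0.81 to 0.85 for Epb41l5, -0.20 to 0.097 for Cd55, -0.43 to 0.019 for Asb5, -0.93 to 0.35 for Angptl7, -1.16 to 0.15 for Nnat and -0.091 to 1.03 for Egr1. Epb41l5 was also at -0.0065 with a pseudocount of 0.1 and -0.25 with array weights, and Cd55 at 0.021 without mitochondrially encoded genes. The list medians kept their sign in every setting run for developing muscle (0.315 to 0.579), p53 targets, dystrophin complex, endothelial, fatty acid and slow fibre genes. They changed sign when a library was left out for 25 of 40 lists. Among these were neuromuscular junction (lowest -0.047), denervation (-0.047), growth signalling (-0.060) and fibroblast genes (-0.035), adipocyte markers (highest 0.075), tendon (-0.35 to 0.29), macrophage (-0.024 to 0.496), fast fibre (-0.12 to 0.046) and sarcomere genes (-0.18 to 0.053) and the PHF2 relatives (-0.025 to 0.098).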

Other observations

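The genes that varied most among soleus libraries beyond genotype, with a mean of at least 5 TPM, included Myh4, given above, and a set of secreted, hormone-responsive and translation genes. Cish, an inhibitor of cytokine signalling that growth hormone induces, was at 2.45, 11.4 and 6.84 TPM in KO 1 to 3 and 5.24, 34.9 and 32.7 TPM in Ctrl 1 to 3. Nnat, an imprinted membrane protein, was at 4.20, 30.8 and 17.3 TPM in KO and 36.6, 13.01 and 18.5 TPM in Ctrl, and the immediate early factor Egr1 at 21.2, 22.4 and 3.94 TPM in KO and 5.54, 18.6 and 9.87 TPM in Ctrl. All 3 spanned a wide range within each genotype. Fmod, a tendon proteoglycan, was at 41.4, 135 and 41.6 TPM in KO and 121, 34.1 and 136 TPM in Ctrl, and Angptl7, a secreted angiopoietin-like protein, at 26.2, 73.8 and 11.6 TPM in KO and 59.6, 13.9 and 47.9 TPM in Ctrl. Both were highest in KO 2, Ctrl 1 and Ctrl 3, as was the summed tendon marker level, which was 549 TPM in KO 2, 444 TPM in Ctrl 1 and 546 TPM in Ctrl 3, and 180 to 271 TPM in the other libraries.

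Rpl29, a ribosomal protein gene with near-identical copies whose reads may be split among them, was at 399, 172 and 226 TPM in KO and 12.6, 191 and 199 TPM in Ctrl, lowest by far in Ctrl 1. The mitochondrial mt-Atp8, whose frame overlaps that of mt-Atp6, was at 4679, 11224 and 20724 TPM in KO and 12135, 1881 and 7147 TPM in Ctrl. Epb41l5, which has a FERM domain and acts in epithelial polarity, and which fell in gastrocnemius, was at 1.68, 0.305 and 12.0 TPM in KO soleus and 0.564, 7.29 and 1.70 TPM in Ctrl soleus, highest in KO 3 and Ctrl 2.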
